A study of Mus musculus with 12 samples.

Results

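C4-HD mammary carcinomas examined 12 h after mifepristone (MFP) was given were compared with C4-HD carcinomas kept on medroxyprogesterone acetate (MPA). The comparison used every array whose source name was 12 h MFP or MPA, which gave 2 arrays in each group and 4 of the 12 arrays of the series. The tumours were grown in BALB/c mice bearing an MPA pellet. At a tumour area of 50 mm2 the pellet was taken out and MFP was supplied at 10 mg/kg/day, while the MPA group kept its pellet and received saline. The other groups, also of 2 arrays each, were MFP for 6 h, 24 h and 48 h, and a group labelled no MPA that had 48 h of saline. The treatment notes shared by all samples speak of 48 h of MFP, and the series text lists 12, 24 and 48 h, so each time used here is that of the array's own source name.

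The MFP groups lost MPA and gained MFP at once, so withdrawal and receptor antagonism cannot be told apart within this comparison. Host age and sex were not given in the labels. The labels call the arrays independent replicates without tying each to a mouse, so the p-values measure the spread between these arrays. RNA came from formalin-fixed, paraffin-embedded whole tumours, which also hold stroma, vessels and leukocytes. In such bulk samples fewer cells of a type and less RNA per cell cannot be told apart.

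C4-HD is a transplantable mouse mammary carcinoma that arose under MPA and grows in its presence. MPA is a synthetic progestin that activates the progesterone receptor and also binds the glucocorticoid receptor, and MFP occupies both receptors as an antagonist. In mammary epithelium the progesterone receptor drives proliferation, partly through cyclin D1 and partly through paracrine signals such as RANKL, the product of Tnfsf11.

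The deposited values were log2 ratios in which the 2 MPA arrays average 1 on the linear scale. These arrays therefore lie on either side of 0, and close to it only where they agree. Where they differ, as for 2210407C18Rik (-1.85 and 0.78), the mean of their log2 values lies below 0. Levels above background could not be recovered from these ratios, and the tissue label could not be checked by whether mammary markers were present. Genes were called changed at a Benjamini-Hochberg adjusted p under 0.05 in limma, with 1 probe set for each of 18193 genes. All fold changes below are differences of mean log2 values with their standard error, n = 2 arrays per group.

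The upstream sequences of the most changed gene of the cholesterol list and of the replication list are shown because these genes had the largest falls among the called members of their lists. They are the 250 bases before the RefSeq start site on the gene's strand (GRCm38.p6). Idi1 lies at chr13:8885356-8885605, plus strand, and the capitals mark matches to CCAAT on the reverse strand. Cdc6 lies at chr11:98907901-98908150, plus strand, and the capitals mark a match to the E2F-type motif TTTNNCGC on the reverse strand.
Idi1: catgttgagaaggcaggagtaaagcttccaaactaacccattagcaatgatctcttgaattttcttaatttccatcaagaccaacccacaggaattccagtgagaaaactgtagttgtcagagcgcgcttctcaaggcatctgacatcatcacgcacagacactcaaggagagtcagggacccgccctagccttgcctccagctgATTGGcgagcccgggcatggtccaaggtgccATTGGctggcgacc
Cdc6: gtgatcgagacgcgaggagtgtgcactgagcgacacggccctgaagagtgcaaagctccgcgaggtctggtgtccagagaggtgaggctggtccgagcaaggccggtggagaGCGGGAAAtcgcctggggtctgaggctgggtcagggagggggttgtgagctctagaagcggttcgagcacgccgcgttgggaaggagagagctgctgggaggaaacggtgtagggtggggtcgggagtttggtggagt

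Both strands were searched. The E2F-type motif was present upstream of 6.15% of the 14367 tested genes with a RefSeq promoter. It was present in 15.2% of 394 genes that fell and in 4.2% of 238 that rose, and in 5 of 16 replication genes that fell, against 9 of all 28 measured replication genes with a promoter. CCAAT was present in 35.7% of all 14367, in 11 of the 16 replication genes that fell (18 of the 28 measured) and in 4 of 5 cholesterol genes that fell (13 of 16 measured). The shares of the fallen genes were thus close to those of their whole lists. Idi1 had no match to the sterol-type motif TCACNCCAC, and Cdc6 none to CCAAT. The other promoters searched are not printed because they held no match. These were Ndc80 of the mitotic list (TTTNNCGC, TTTGAA and CCAAT) and Fkbp5 of the shared glucocorticoid and progestin list (the palindromic receptor motif). They were not the largest falls of their lists. Aurkb and Zbtb16 fell further but were not among the genes with a promoter to search. The shares and matches describe letters in a window and were not tested.

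At 12 h, 778 genes (4.28%) differed from the MPA tumours. Of these, 476 (2.62%) fell and 302 (1.66%) rose. The median over all genes was 0.02 on the log2 scale, and among called genes it was -1.30 for falls and 1.29 for rises. The arrays of the groups did not overlap for 8682 genes (47.7%), including all 778 called. Fitted on the 4 arrays alone no gene passed (3083 had an unadjusted p under 0.05), so the calls rest on a spread shared with the other 8 arrays. Of 95 called genes that the naming rule picked, 9 passed whichever of the 4 arrays was left out, among them Idi1, Mal, Ncl, Nme1, Nop56, Oasl2, Rab27b and Rrm2. The count of all calls was 56 without the MFP 12 h replicate 2 array, 115 without replicate 1, 293 without MPA replicate 1, 359 without MPA replicate 2, and 131 after quantile normalization.

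Of 53 gene lists, those with most falls were DNA replication, nucleolar ribosome biogenesis and nucleotide, serine and one-carbon synthesis. The lists held 973 measured genes, of which 127 were called (97 fell and 30 rose). The remaining 651 called genes were in none of them.

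**Figure D1:**
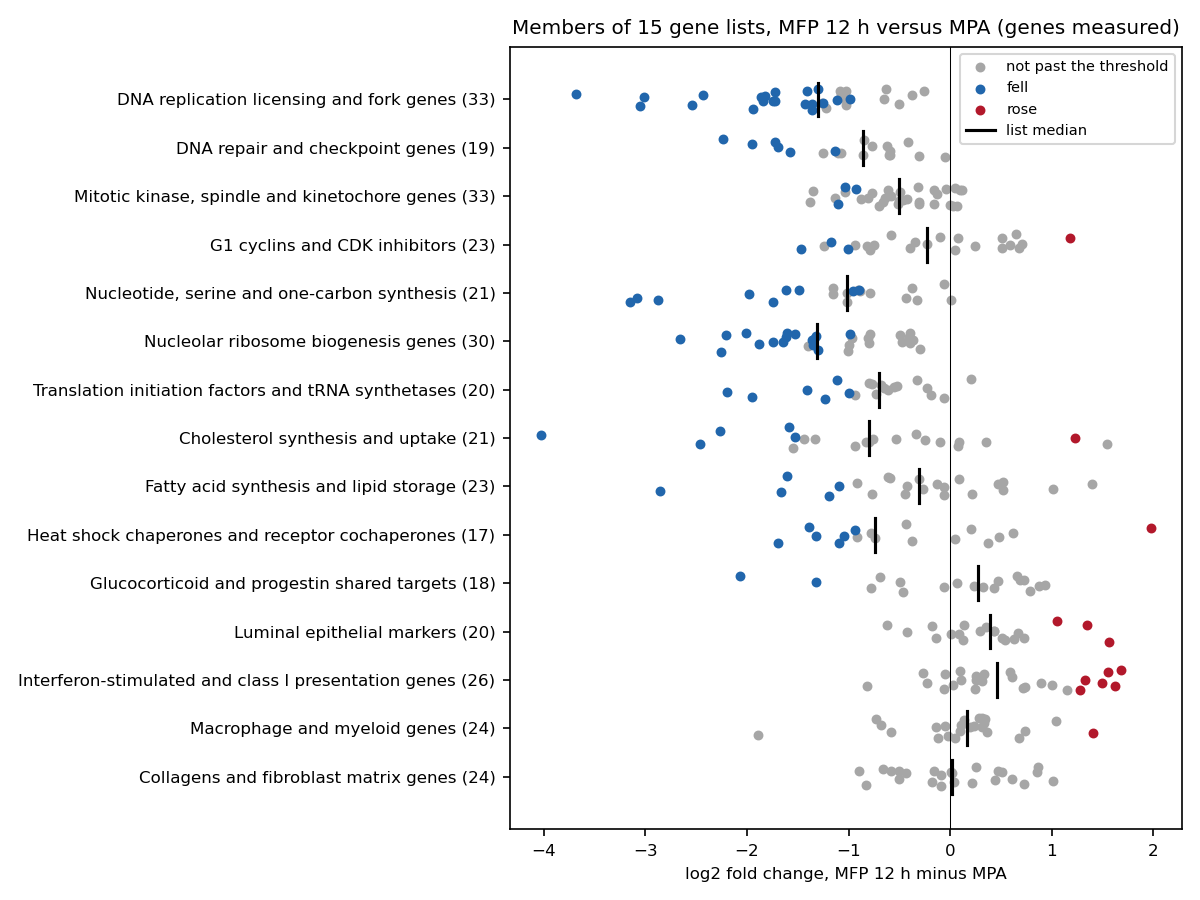
Each point is a gene, placed by its log2 fold change at MFP 12 h relative to MPA on the horizontal axis, in 15 lists whose measured size is in brackets. Black bars are list medians, and coloured points passed the threshold. Replication and ribosome biogenesis genes all lie below 0, with medians of -1.30 and -1.31, while collagen genes centre on 0.02.

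DNA replication genes fell. Of 33 measured, 20 fell and none rose, with a list median of -1.30 and a range of -3.68 to -0.26. The number that fell was 3 to 10 when any one of the 4 arrays was left out. The list median was -0.16 and 0.14 in the MPA arrays and -1.39 and -1.37 in the MFP 12 h arrays.

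Cdc6 loads the MCM helicase onto replication origins. It read -0.02 and 0.02 in the MPA arrays and -3.38 and -3.99 at 12 h. Both 12 h arrays were far below both MPA arrays. The change was -3.68 ± 0.44 (12.9-fold lower, adjusted p = 0.00585). Cdc7, the kinase that activates the loaded helicase, read -0.28 and 0.23 against -2.75 and -3.40, again with no overlap. It fell by 3.05 ± 0.44 (adjusted p = 0.00815). Rrm2, the regulated subunit of ribonucleotide reductase, read 0.09 and -0.10 against -3.32 and -2.70. Its fall of 3.01 ± 0.39 (adjusted p = 0.00698) passed whichever of the 4 arrays was left out.

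Mcm3, a helicase subunit, read -0.39 and 0.31 in the MPA arrays and -2.80 and -2.38 at 12 h, a change of -2.54 ± 0.42 (adjusted p = 0.0118). The other subunits were looked up after these values were seen. Mcm5 changed by -2.43, Mcm4 by -1.94, Mcm2 by -1.84 and Mcm7 by -1.43, all past the threshold. Mcm6, at -1.26 ± 0.38, did not pass (adjusted p = 0.101). The helicase loader Cdt1 (-1.72), its inhibitor geminin, Gmnn (-1.86), and the sliding clamp Pcna (-1.36) also fell.

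DNA repair and checkpoint genes showed 6 falls and no rise among 19, with a median of -0.86, and 3 to 5 falls with an array left out. Blm, a RecQ helicase, read -0.29 and 0.24 in the MPA arrays and -1.54 and -2.41 at 12 h. The 12 h arrays differed from each other but both were below MPA. The fall was 1.95 ± 0.30 (adjusted p = 0.0095), and it passed in 2 of the 4 fits that left out an array. The checkpoint kinase Chek1 (-1.72) and the fork protector Tipin (-1.69) also fell. Among 11 histone and chromatin genes 4 fell, including the maintenance DNA methyltransferase Dnmt1 (-1.09) and the chromatin remodeller Hells (-1.77), and 0 to 1 did with an array left out.

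G1 regulators did not move as a block. Of 23 measured, 3 fell and 1 rose, with a median of -0.23. Ccnd1, cyclin D1, read -0.07 and 0.07 in the MPA arrays and -1.50 and -1.45 at 12 h. The pairs were tight and well apart. The change was -1.47 ± 0.24 (2.78-fold lower, adjusted p = 0.0111). E2f3 (-1.17) and cyclin E1, Ccne1 (-1.01), fell, and the pocket protein gene Rbl2 rose by 1.18 ± 0.23. With any of the 4 arrays left out, at most 1 gene of the list fell and at most 1 rose. Cdkn1a, the CDK inhibitor p21, read 0.63 and 0.70 at 12 h, above both MPA arrays, but its change of 0.68 ± 0.23 did not pass (adjusted p = 0.14).

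**Figure D2:**
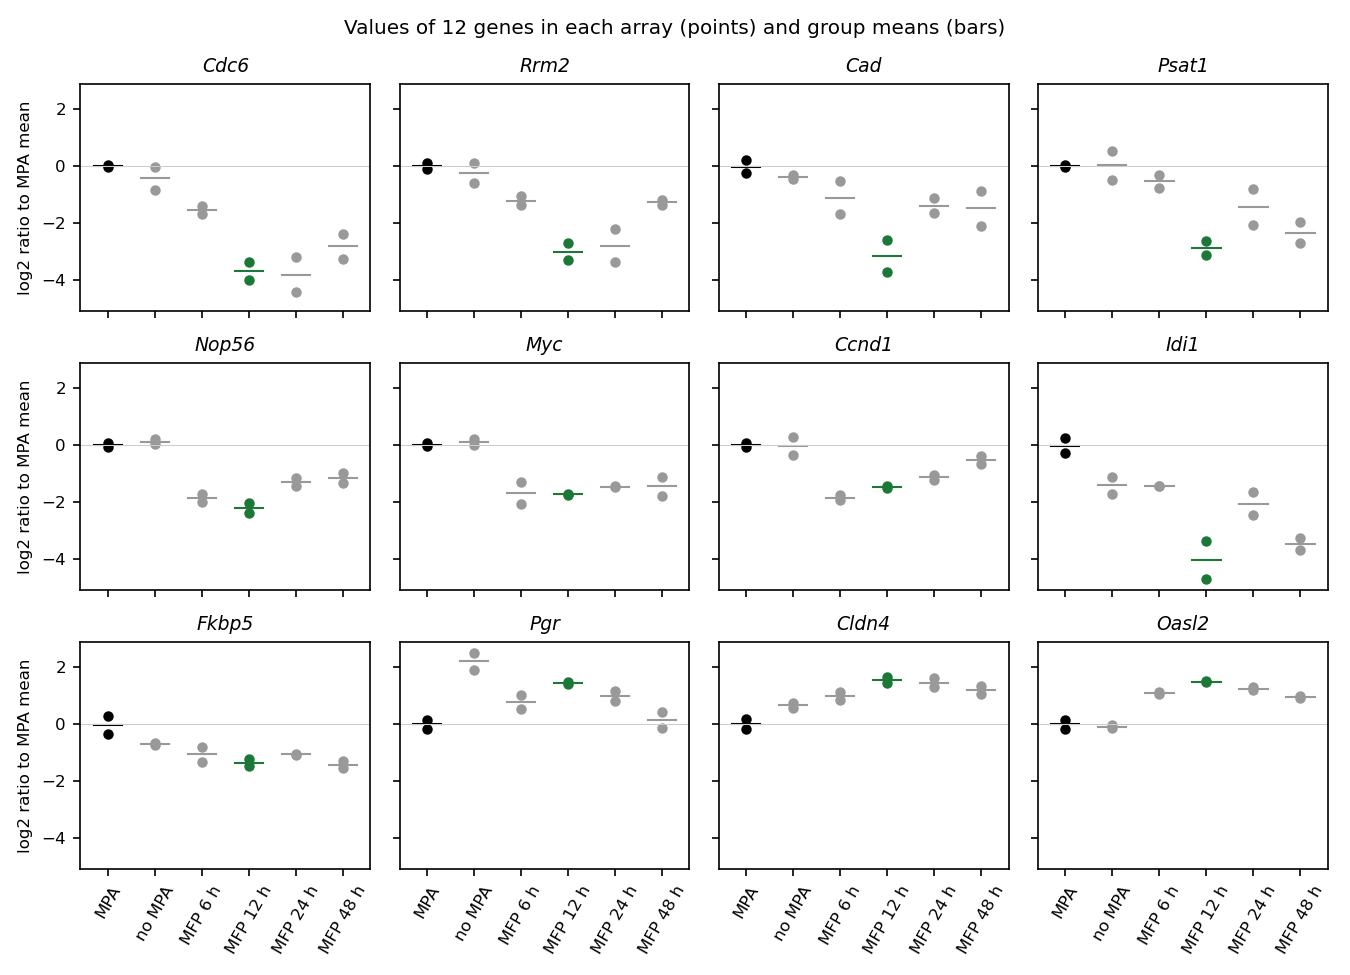
Log2 ratio to the MPA mean (vertical axis) of 12 genes in each of the 12 arrays by group. Points are arrays (MPA black, MFP 12 h green, other groups grey) and short lines are group means; Idi1 reads -4.72 and -3.39 at 12 h and Oasl2 1.51 and 1.46, apart from the MPA arrays in both genes.

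Among 33 listed kinase, spindle and kinetochore genes, 3 fell and none rose at 12 h, and the median was -0.50. The list median was -0.10 and 0.10 in the MPA arrays and -0.41 and -0.65 at 12 h. Aurkb, the Aurora B kinase, read -0.11 and 0.10 against -1.21 and -1.0, and fell by 1.10 ± 0.21 (adjusted p = 0.0216). Ndc80 (-1.04), of the outer kinetochore, and the separase gene Espl1 (-0.93) were the others. At most 1 of the 33 fell when an array was left out. Further mitotic genes outside the list were picked from the called falls after the values were seen. They stand as single genes and do not add to the count of the list. They included the checkpoint ATPase gene Trip13 (-2.16 ± 0.21), the condensin subunit Smc2 (-1.92 ± 0.28), and the kinetochore genes Cenph (-1.87 ± 0.30) and Spc25 (-1.35 ± 0.25). Mki67, the Ki-67 proliferation antigen, read -0.51 and -1.02 at 12 h, below both MPA arrays. Its change of -0.77 ± 0.40 did not pass (adjusted p = 0.355).

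Between 12 h and 24 h the direct test called 463 genes (2.54%), of which 106 (0.583%) fell and 357 (1.96%) rose. The rises included 20 of 23 liver genes, and the part of other organs in the calls of this step was not tested. Of the 33 mitotic genes, 13 fell over this step and none rose, with a median of -1.40. None of the 33 replication genes passed, and their median difference was 0.03. The mitotic count was 4 to 14 when an array of either time was left out. Aurkb fell by a further 2.40 ± 0.21 (adjusted p = 0.000413). Kif2c, a microtubule-depolymerising kinesin picked after the values were seen, changed by -2.98 ± 0.35 over this step and by -0.31 from MPA to 12 h (adjusted p = 0.737). The replication list median was -1.43 and -1.20 in the 24 h arrays, and the mitotic one -2.21 and -1.52.

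**Figure D3:**
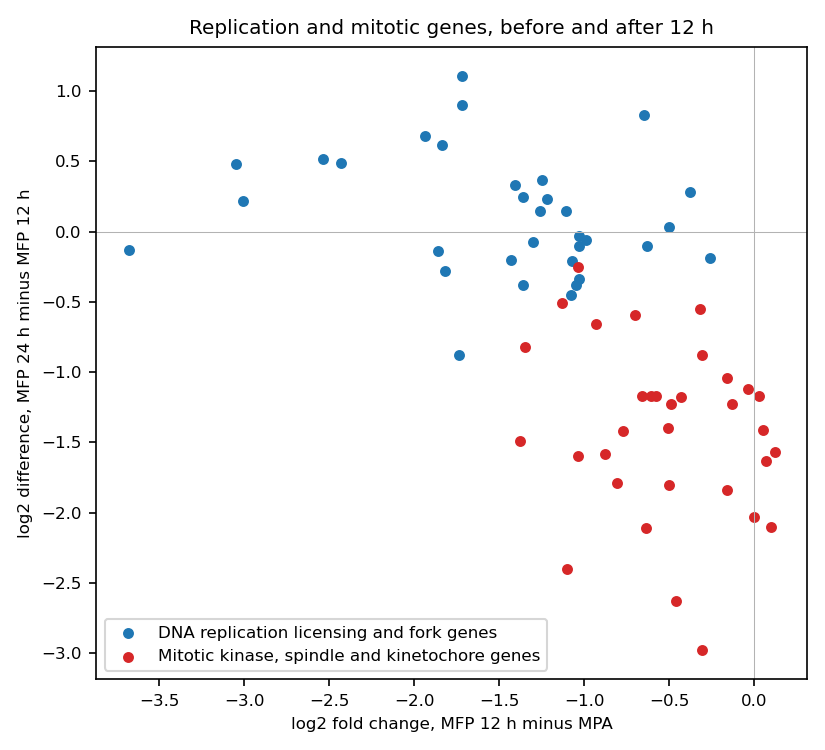
For replication genes (blue) and mitotic genes (red), the horizontal axis is the log2 change at MFP 12 h relative to MPA and the vertical axis the log2 change from 12 h to 24 h. The axes share the 12 h arrays and no relation is drawn from them; replication genes lie left of 0 (median -1.30) and near 0 vertically (median 0.03), and mitotic genes lie lower (vertical median -1.40).

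Genes of nucleotide supply were among the largest falls. Of 21 nucleotide, serine and one-carbon genes, 9 fell and none rose, with a median of -1.02. The list median was -0.03 and 0.03 in the MPA arrays against -1.02 and -1.17. The count was 2 to 5 with an array left out, and 15 with the mean of all probe sets of each gene.

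Cad, which carries the first steps of pyrimidine synthesis, read 0.22 and -0.26 in the MPA arrays and -3.74 and -2.61 at 12 h. The 12 h arrays lay apart from each other and far below MPA. It fell by 3.15 ± 0.51 (8.88-fold, adjusted p = 0.0111). Ppat, the first committed enzyme of purine synthesis, read -0.21 and 0.18 against -3.47 and -2.71 and fell by 3.08 ± 0.57 (adjusted p = 0.0178). Only 1 of the 3 Ppat probe sets passed, though all 3 moved downwards. Psat1, of serine synthesis, read -0.04 and 0.04 against -3.12 and -2.63 and fell by 2.88 ± 0.45 (adjusted p = 0.0103). In each the groups were separate, as in every called gene. Mthfd1, a folate-cycle enzyme, fell by 1.98 ± 0.26 and then rose by 1.17 ± 0.26 from 12 h to 24 h (adjusted p = 0.0422).

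Nucleolar genes of ribosome production fell. Of 30 measured, 16 fell and none rose, with a median of -1.31 and a range of -2.66 to -0.30. The count was 4 to 11 with an array left out. The list median was 0.01 and -0.01 in the MPA arrays and -1.24 and -1.25 at 12 h, and it was already -1.26 and -1.54 in the 6 h arrays.

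Nolc1, a nucleolar phosphoprotein, read 0.01 and -0.01 in the MPA arrays and -2.25 and -3.07 at 12 h, a change of -2.66 ± 0.36. Of its 3 probe sets 1 passed, and all 3 moved downwards. Nop56, of the box C/D particles that guide rRNA methylation, read 0.07 and -0.07 against -2.04 and -2.38, and fell by 2.21 ± 0.23 (adjusted p = 0.00576). Ncl, nucleolin, read -0.02 and 0.02 against -1.76 and -2.27 and fell by 2.01 ± 0.24 (adjusted p = 0.00585). No 12 h array of these genes came near an MPA array. Nop56 and Ncl passed whichever array was left out, and all 5 probe sets of Ncl passed.

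Myc, the transcription factor that drives ribosome production, read 0.05 and -0.05 in the MPA arrays and -1.75 and -1.71 at 12 h. The replicates were close and the groups apart. It fell by 1.73 ± 0.29 (3.31-fold, adjusted p = 0.0125). Of 16 Myc network genes, 7 fell and none rose, and 2 to 6 did so with an array left out. Nme1, a nucleoside diphosphate kinase, fell by 1.90 ± 0.19, and Odc1, the first enzyme of polyamine synthesis, changed by -1.66.

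Of 20 translation factors and tRNA synthetases, 6 fell and none rose, with a median of -0.71, and 1 to 3 fell with an array left out. Eef1e1, a scaffold of the synthetase complex, fell by 2.20 ± 0.39 and the synthetase Eprs by 1.95 ± 0.26. The cap-binding factor Eif4e fell by 1.41 ± 0.22, though only 2 of its 4 probe sets moved downwards. Of 10 listed cytosolic ribosomal protein genes 1, Rpl13a, fell (-0.78 ± 0.19). Outside the list, the called falls held Rpl12 (-1.94), Rps25 (-1.92), Rpl41 (-1.34) and Rps19 (-0.97). These were picked from the calls after the values were seen. They stand as single genes and say nothing about other ribosomal protein genes. Of 21 mitochondrial genes 3 fell, and none did with any array left out. The largest fall was that of the mitochondrial ribosomal protein Mrpl15 (-1.40), of which 1 of 8 probe sets passed.

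Sterol and fatty acid synthesis held the largest fall of all called genes. Idi1, whose upstream sequence is printed above, makes dimethylallyl diphosphate in the mevalonate pathway. It read 0.23 and -0.28 in the MPA arrays and -4.72 and -3.39 at 12 h. Both 12 h arrays were far below MPA. It fell by 4.03 ± 0.43 (16.4-fold, adjusted p = 0.00576) and passed whichever array was left out. Insig1, which retains the sterol sensor in the endoplasmic reticulum, read 0.32 and -0.42 against -2.61 and -2.42, and fell by 2.46 ± 0.34 (adjusted p = 0.0079). Cyp51, lanosterol demethylase, fell by 2.27 ± 0.35 (adjusted p = 0.0098), and 1 of its 3 probe sets passed.

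Of 21 cholesterol genes, 5 fell and 1 rose, with a median of -0.80. The sterol exporter Abcg1 was the one that rose (1.23 ± 0.24, adjusted p = 0.0226). The 12 h arrays differed here, with list medians of -0.59 and -1.23, against 0.10 and -0.11 for MPA. From 12 h to 24 h both Idi1 and Insig1 rose, by 1.99 ± 0.43 and 2.63 ± 0.34. Of 23 liver genes 20 also rose over that step, and the part of liver signal in both rises was not tested. Of 23 fatty acid genes 5 fell and none rose (median -0.31). Elovl6, a fatty acid elongase, read 0.30 and -0.38 in the MPA arrays and -2.34 and -3.46 at 12 h, a fall of 2.86 ± 0.49 (adjusted p = 0.0137). Acaca (-1.67), which makes malonyl-CoA, and Fasn (-1.19), fatty acid synthase, fell with it. With an array left out, 1 to 4 cholesterol genes and 0 to 2 fatty acid genes fell.

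Steroid receptor genes and their classical targets moved in both directions. Of 12 receptor and coregulator genes 2 rose and 1 fell, with at most 1 in each direction when an array was left out. Pgr, the receptor itself, read -0.17 and 0.15 in the MPA arrays and 1.46 and 1.40 at 12 h. Both 12 h arrays were higher. It rose by 1.44 ± 0.29 (2.71-fold, adjusted p = 0.0239) and all 3 of its probe sets passed, but the call was lost whichever of the 4 arrays was left out. Nrip1, a corepressor of nuclear receptors, read -0.02 and 0.01 against 1.54 and 1.53 and rose by 1.53 ± 0.23 (adjusted p = 0.00922). Cited1, a coactivator of the estrogen receptor, read -1.19 and 0.64 against -2.55 and -2.77. The MPA arrays differed widely but still lay above both 12 h arrays, and it fell by 2.39 ± 0.49 (adjusted p = 0.0259).

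Esr1, estrogen receptor alpha, read 0.24 and -0.29 in the MPA arrays and -0.29 and -0.31 at 12 h. One 12 h array lay level with the lower MPA array, so the groups overlapped, and the change of -0.28 ± 0.24 did not pass (adjusted p = 0.628). It fell by 1.26 ± 0.24 from 12 h to 24 h (adjusted p = 0.0195). Of 20 estrogen-response genes Pgr and Nrip1, which that list shares, rose and none fell.

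Among 18 targets shared by glucocorticoid and progestin receptors, 2 fell and none rose, and the median was 0.27. Zbtb16, the PLZF transcription factor, read 0.35 and -0.47 in the MPA arrays and -1.78 and -2.47 at 12 h, with no overlap, and fell by 2.07 ± 0.40 (adjusted p = 0.0215). Fkbp5, a receptor cochaperone, read 0.29 and -0.36 against -1.25 and -1.47 and fell by 1.32 ± 0.26 (adjusted p = 0.0218). Both were separate from MPA in all arrays, as was every called gene. For each of them 1 of 3 probe sets passed. Sgk1, a kinase of the same list, had a change of 0.73 ± 0.33 that did not pass (adjusted p = 0.27). None of 14 progestin paracrine genes was called. Tnfsf11 differed by -0.43 ± 0.28 (adjusted p = 0.474) and the Wnt ligand gene Wnt4 by 0.72 ± 0.39 (adjusted p = 0.384).

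Heat shock genes split. Of 17 measured, 6 fell and 1 rose, with a median of -0.74. The mitochondrial chaperonin Hspd1 (-1.69 ± 0.24) and its partner Hspe1 (-1.09), and the cytosolic Hsph1 (-1.39), Hspa8 (-1.05) and Hsp90aa1 (-0.94), fell, as did Fkbp5, which the list shares. Hspb1, a small heat shock protein, read -0.68 and 0.46 in the MPA arrays and 2.01 and 1.72 at 12 h. It rose above both MPA arrays by 1.98 ± 0.35 (adjusted p = 0.0166). At most 2 of the list fell when an array was left out.

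Growth factor lists held few calls, and 4.28% of all genes were called. Nrg1, the neuregulin ligand of ERBB receptors, read -0.08 and 0.08 in the MPA arrays and -2.20 and -3.55 at 12 h. The 12 h arrays differed from each other but both were below MPA, and it fell by 2.88 ± 0.44 (adjusted p = 0.0095). It was the only call among 14 ERBB genes. Igfbp5, an IGF-binding protein, fell by 1.94 ± 0.47 and was the only one of 15 IGF genes. Jag1, a Notch ligand, changed by -1.30. The calls of Igfbp5 and Jag1 were lost whichever of the 4 arrays was left out. No gene was called among 19 FGF and HGF genes or 22 TGF-beta genes. Of 26 STAT and involution genes, the gp130 receptor Il6st rose by 1.44 ± 0.22 (adjusted p = 0.0095), and Igfbp5, also in that list, was the one that fell. For Il6st 1 of 4 probe sets passed.

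Epithelial genes that changed rose. Of 20 luminal markers, 3 rose and none fell, with a median of 0.39, and 0 to 2 rose with an array left out. Cldn4, a tight junction claudin, read -0.19 and 0.16 in the MPA arrays and 1.44 and 1.66 at 12 h. Both 12 h arrays were clearly higher, and the change was 1.56 ± 0.23 (adjusted p = 0.00859). The epithelial transcription factor Elf3 (1.35 ± 0.24) and E-cadherin, Cdh1 (1.05 ± 0.21), were the others. Krt8, a luminal keratin, had a change of 0.54 ± 0.26 that did not pass (adjusted p = 0.313). Of 19 basal and contractile genes, Tpm2 (1.69) and Cald1 (1.19), which bind actin, rose. For Tpm2 1 of 4 probe sets passed, and for Cald1 2 of 5.

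Interferon-stimulated genes held the most rises of any list. Of 26 measured, 6 rose and none fell, with a median of 0.46, and 1 to 7 rose with an array left out. Oasl2, an oligoadenylate synthetase-like gene, read -0.17 and 0.15 in the MPA arrays and 1.51 and 1.46 at 12 h. Both 12 h arrays stood above MPA. It rose by 1.49 ± 0.19 (adjusted p = 0.00672), and passed in every fit that left out an array, with changes of 1.33 to 1.66. Gbp2, a guanylate-binding GTPase, rose by 1.68 ± 0.34, Ifit2 by 1.62 ± 0.37 and Ifit1 by 1.55 ± 0.27. The MPA arrays of Ifit2, at -0.80 and 0.51, were far apart.

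Leukocyte and stromal lists held few calls, and 1.66% of all genes rose. Among 24 macrophage genes Lgals3, galectin-3, rose (1.40 ± 0.32), and 0 to 4 did so with an array left out. The chemokines Ccl3 (1.75 ± 0.35) and Ccl4 (1.33 ± 0.30) rose among 31 genes of that list, and 0 to 1 did with an array left out. None of 24 fibroblast, 20 endothelial and pericyte, 13 neutrophil or 21 lymphoid genes was called. The MPA arrays differed from each other in stromal lists. Their fibroblast medians were -0.86 and 0.54, and their macrophage medians -0.81 and 0.51. The 12 h arrays lay between, at -0.04 and -0.04 for fibroblast genes and 0.08 and -0.06 for macrophage genes. The part of tissue makeup in the calls was not tested.

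The clock list had 3 rises and 1 fall among 18, and 0 to 2 rises and no fall with an array left out. The repressors Bhlhe41 (1.48), Nr1d2 (1.31) and Per3 (1.05) rose and Cry1 (-1.34) fell. Per3 fell again by 1.27 ± 0.24 from 12 h to 24 h (adjusted p = 0.0186). Clock times of excision were not given in the labels, and the hour of day and the hours of treatment cannot be told apart. Of 23 immediate early genes the transcription factors Klf6 (1.27) and Fosl2 (1.24) rose. Of 24 p53 and death genes only Gadd45b, a stress-response gene, rose (1.95 ± 0.37), against 4 with the mean of all probe sets.

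The 12 largest rises of all genes included Mal and Rab27b. Mal, a proteolipid of apical transport, read -0.38 and 0.30 in the MPA arrays and 2.77 and 2.80 at 12 h. It rose by 2.83 ± 0.33 (7.09-fold, adjusted p = 0.00576). Rab27b, a GTPase of secretory granules, read 0.17 and -0.19 against 2.47 and 2.65 and rose by 2.57 ± 0.25 (adjusted p = 0.00576). Both genes were far above MPA in both 12 h arrays and passed whichever array was left out.

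Ceacam1, a cell adhesion glycoprotein, read 0.33 and -0.44 in the MPA arrays and 2.54 and 3.46 at 12 h. It rose by 3.05 ± 0.45 (adjusted p = 0.00863), and all 8 of its probe sets passed. Ido1, which degrades tryptophan, rose by 2.90 ± 0.66 (adjusted p = 0.0373), but its MPA arrays were far apart, at -1.53 and 0.73. Krt4, a keratin of stratified mucosa, rose by 2.48 ± 0.42. The largest, 2210407C18Rik, read -1.85 and 0.78 in the MPA arrays and 2.71 and 3.33 at 12 h. Its MPA arrays were far apart, and the rise of 3.55 ± 0.84 had an adjusted p of 0.0454. Aldh2, a mitochondrial aldehyde dehydrogenase, was among the 12 largest falls (-3.01 ± 0.49), but only 1 of its 5 probe sets passed.

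Against MFP 6 h, no gene passed (0.0%) in limma, while 1348 had an unadjusted p under 0.05. Leaving out an array gave 0 to 2 calls. Myc differed by -0.03 and the ribosome biogenesis list by a median of 0.13. The replication list median was -0.58 and -0.78 in the 6 h arrays, between the MPA and the 12 h arrays, but no member passed the direct test. Both times shared the same MPA arrays as their reference.

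Against the no MPA group the direct test called 571 genes (3.14%), with 311 falls (1.71%) and 260 rises (1.43%). The no MPA tumours were taken at 48 h, so treatment and time cannot be told apart here. Leaving out 1 array reduced the count to 3 to 63, and each of the 4 arrays did so. Of 30 ribosome biogenesis genes 17 were lower at MFP 12 h, of 33 replication genes 15, and of 21 nucleotide genes 10. Those counts were 0 to 5, 0 to 3 and 0 to 1 with an array left out.

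Nop56 was lower than in no MPA by a log2 change of -2.32 ± 0.23, Myc by -1.83 ± 0.29, and Nrg1 by -3.23 ± 0.44. Zbtb16 differed by -2.28 ± 0.40 (adjusted p = 0.0176). Pgr differed by -0.77 ± 0.29, in the opposite direction to its difference from MPA, and did not pass (adjusted p = 0.202). Among interferon genes 9 of 26 were higher than in no MPA, and 0 to 1 with an array left out. No gene passed between no MPA and MPA in limma, with 1198 at an unadjusted p under 0.05.

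**Figure D4:**
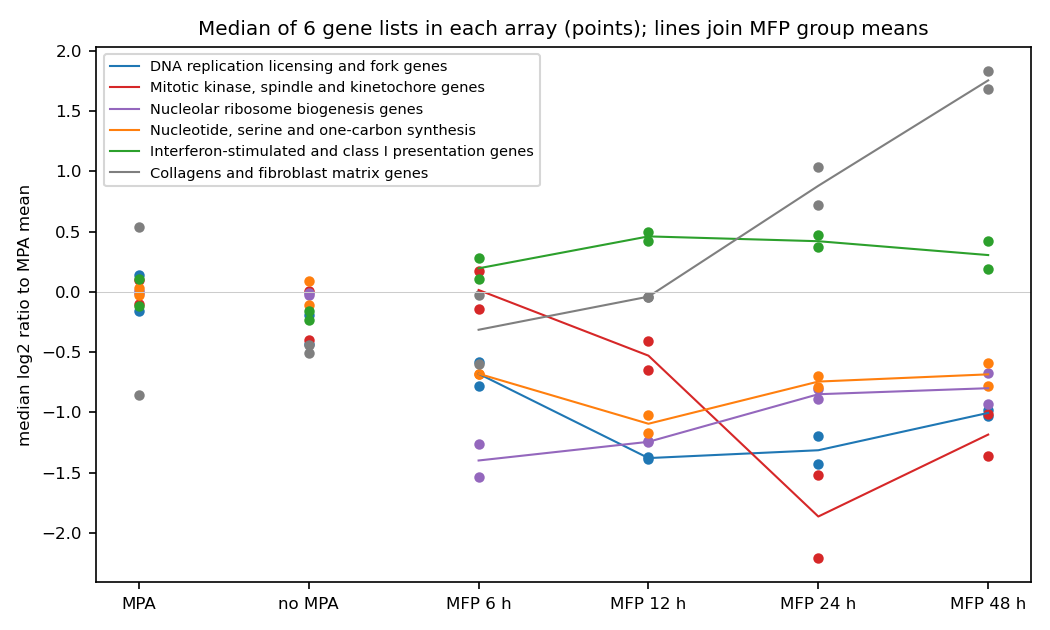
Median log2 ratio to the MPA mean over the measured members of 6 gene lists, for each of the 12 arrays by group. Points are arrays and lines join the means of the MFP groups; the replication median lies at -1.39 and -1.37 at 12 h and the mitotic median at -0.41 and -0.65, with mitotic values of -2.21 and -1.52 at 24 h.

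Values of RNA quality and of other organs were read beside these results. The 3′ minus 5′ difference of the Actb control probe sets was -0.07 and 0.05 in the MPA arrays and 0.34 and 0.36 at 12 h. The same difference for transferrin receptor was 0.07 and -0.15 against 0.52 and 0.82, and for Gapdh 0.16 and -0.12 against 0.28 and 0.28. For pyruvate carboxylase it was -0.20 and 0.24 against -0.30 and -0.75, and for 18S rRNA 0.02 and -0.02 against -0.09 and -0.07. The first 3 controls were thus higher at 12 h in both arrays and the last pair lower, and their part in the calls was not tested. The liver list median was 0.82 and -2.09 in the MPA arrays and -1.81 and -1.43 at 12 h, with none of 23 genes called. At 24 h it was 3.74 and 4.25, and 20 of the 23 rose over 12 h (9 to 20 with an array left out). Of the 16 pancreas genes none was called at 12 h. Leaving out the genes of all other-organ lists gave 795 calls. Differences between the 2 arrays of a group had an SD over genes of 0.51 for MPA and 0.39 for MFP 12 h.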

How the data were processed

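The 12 arrays, in 6 groups of 2, were analysed from FFPE tumour RNA (200 ng input per the labels). The submitters' processing notes name GCRMA, without a version. Per the values, the deposited log2 table holds ratios to the MPA mean: 45099 of 45101 probe sets average 1 over the MPA arrays on the linear scale, within 0.0001. Precision is limited by how many arrays there are. Of the probe sets, 34945 had 1 symbol in the platform annotation, 932 several and 9160 none, and 64 were controls. Each of 18193 genes was represented by its most variable probe set, by SD across the 12 arrays regardless of group; 9010 genes had more than 1. A mean per group was fitted to all arrays with limma 3.58.1 (R 4.3.3, lmFit and eBayes, 6 residual degrees of freedom), with Benjamini-Hochberg adjustment over all genes. On simulated data with 18193 genes, 26.4% of changes of size 1, 80.3% of size 2 and 95% of size 3 on the log2 scale were recovered. The simulated noise was normal and independent between genes and arrays, and 200 genes were changed, in the MFP 12 h group alone. Recovery in the real arrays, where genes vary together, may differ. Promoters came from RefSeq. No batch labels were given.

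Lists and members were chosen with earlier results of these data known. Genes named are the 12 largest rises and 12 largest falls among called genes without overlap, up to 4 called members per list and direction, or, in a list with no call, its member of smallest p, and Pgr, Esr1, Tnfsf11, Wnt4, Myc, Ccnd1, Mki67, Cdkn1a, Krt8, Fkbp5 and Zbtb16. Further genes are named as complex members or said to be picked afterwards. Of 1048 listed genes, 75 were not analysed here, and one gene that passed is not reported here. The alternatives were other sets of arrays, normalizations, probe set rules, moderation, weights, filters and a test against 0.5.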

Additional observations from a re-analysis of the deposited data

Results flagged for a closer look

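For 9 named genes the direct limma test between MFP 12 h and MFP 24 h passed an adjusted p of 0.05, so their difference from MPA was not the same at both times. Idi1 rose by 1.99 on the log2 scale from 12 h to 24 h and Insig1 by 2.63. Mthfd1 rose by 1.17 and Ndufb5, a complex I subunit that fell at 12 h, by 1.07. Aurkb changed by -2.40, Esr1 by -1.26 and Per3 by -1.27. Aldh2 rose by 5.27 and the fibrinogen chain gene Fgb by 3.48. Over the same step 20 of 23 liver genes rose. The part of that signal in the changes of these 9 named genes, Idi1 and Insig1 included, was not tested.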

How the results depend on the processing

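No paired analysis was possible because the labels carry no replicate numbers. The 778 calls against MPA became 0 with the 4 arrays alone (2 residual degrees of freedom), 458 with the 6 arrays of MPA, MFP 6 h and MFP 12 h, 131 after quantile normalization and 40 in the test against 0.5. Of the 131, 130 were among the 778. Quantile normalization equalises arrays whose SD over probe sets was 0.25 to 0.27 for MPA, measured against their own mean, and 0.51 to 0.52 for MFP 12 h. Leaving out each array gave 56 to 359 calls, of which 52 to 250 were among the 778; the lone array of a group is then assumed to vary like the others. The same gave 0 to 2 against 6 h, 193 to 916 from 12 h to 24 h (916 without MFP 24 h replicate 1), 3 to 63 against no MPA, and 16 to 81 for the 127 listed genes called. Other settings gave 576 to 858 calls. The 858 came from the mean of all probe sets of each gene, and 583 of them were among the 778. Of 95 named genes called, 28 stayed called after quantile normalization, 12 to 51 with any single array omitted, and 9 in all 4 fits that left out an array. No named gene changed direction past the threshold. Signal over background is not in the deposited ratios, so dim probe sets could not be filtered.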

Other observations

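The genes here were picked after their values were seen because they were among the 778 calls, so they stand as single genes and not as a group. Sytl2, a Rab27 effector, read 0.03 and -0.03 in the MPA arrays and 2.24 and 1.78 at 12 h, and rose by 2.01 ± 0.28 (limma adjusted p = 0.0079). Exph5, another Rab27 effector, rose by 1.94 ± 0.43 (adjusted p = 0.0361) and Mal2, of transcytosis, by 2.07 ± 0.24 (adjusted p = 0.00576). In all 3 genes the 12 h arrays lay above the MPA arrays, as in every called rise.

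Several falls were outside the lists. Ung, uracil-DNA glycosylase, fell by 2.49 ± 0.30 (adjusted p = 0.00585) and Dut, dUTPase, by 2.20 ± 0.28. The replication-coupled ubiquitin ligase subunit Dtl fell by 2.11 ± 0.38 and the atypical repressor E2f8 by 2.16 ± 0.33. For Dut 1 of 2 probe sets passed, for Dtl 2 of 6 and for E2f8 1 of 2. Among rises, the receptor Tlr4 changed by 1.92 ± 0.26 and the aryl hydrocarbon receptor Ahr by 1.96 ± 0.36. The serine protease Tmprss2 changed by 2.07 ± 0.44 and the collagen receptor subunit Itga2 by 2.15 ± 0.37. For Tlr4 1 of 4 probe sets passed, for Tmprss2 2 of 4 and for Ahr 2 of 2. With an array left out the change was 1.61 to 2.32 for Ahr and 1.60 to 2.70 for Itga2.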
